A study of Mus musculus with 6 samples.

Results

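The T cell receptor and immunoglobulin loci are the 6 stretches of the mouse genome whose V, D and J gene segments are cut and joined in developing lymphocytes. They were studied by ATAC-seq, which uses a transposase to mark accessible DNA, in 6 thymus libraries. Members were all deposited peak summits inside fixed GRCm38 intervals: Tcra/Tcrd at chr14:52400000-54250000, Tcrb at chr6:40850000-41600000, Tcrg at chr13:19150000-19400000, Igh at chr12:113200000-116050000, Igk at chr6:67500000-70800000 and Igl at chr16:19000000-19300000. A summit is the single base with the strongest signal of a peak. Each summit was widened by 250 bp per side, and windows that overlapped, in whichever library, were joined as 1 region. This gave 355 regions in the 6 loci, of 73702 regions on chromosomes 1 to 19 and X. Tcra/Tcrd held 138 of them, Igh 118, Tcrb 60, Tcrg 23, Igk 15 and Igl 1.

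The libraries came from mice with germline p53 alterations, aged 4 weeks, of an equal mix of BALB/C and C57BL6. The p53 AD/- mice had 1 AD allele, which the series describes as dimeric p53, and no second allele (3 libraries). The comparison mice were p53 -/-, called null here (3 libraries). By these labels no mouse had a wild-type p53 allele, and there is no wild-type group. The labels do not say whether the libraries come from separate mice, so p-values measure the spread between these libraries. GRCm38 is the C57BL/6J genome, and differences of the receptor loci between the 2 strains were not examined here. The thymus was not sorted, so fewer cells with an open site and a site that is less open per cell cannot be told apart.

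Each receptor chain is encoded by 1 of many V segments joined to a J segment, in some chains through a D segment, next to a constant (C) gene. V segments are preceded by a promoter and followed by a recombination signal sequence, which the RAG recombinase cuts, and joining removes or inverts the DNA in between. In the thymus the Tcrg, Tcrd and Tcrb loci are rearranged in immature cells and Tcra later, in cells that carry both CD4 and CD8, whereas complete assembly of the Ig loci belongs to B cells.

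The sequences of the receptor segments and enhancers were not used here. The promoters that follow are of non-receptor genes inside or at the edge of the loci, and they show which bases carried the summits that were found in every library. RefSeq promoter sequences (GRCm38.p6, 250 bases before to 50 after the start) existed for 36 genes in the loci, 6 of these had a summit inside and 3 had one in all 6 libraries. Those 3 are shown with Gm40900, whose promoter lies within the Igh V array and held a summit in 5 libraries. Capitals mark the stretch from the lowest to the highest summit position over the libraries, and all run 5′ to 3′.

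Rpia, chr6:70792126-70792425, minus strand: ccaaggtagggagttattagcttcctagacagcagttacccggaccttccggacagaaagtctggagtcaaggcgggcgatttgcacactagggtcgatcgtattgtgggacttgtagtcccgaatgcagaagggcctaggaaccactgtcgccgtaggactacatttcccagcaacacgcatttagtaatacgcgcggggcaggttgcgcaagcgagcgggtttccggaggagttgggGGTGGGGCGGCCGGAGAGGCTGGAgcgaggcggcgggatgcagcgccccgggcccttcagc

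Gm40827, chr13:19395597-19395896, plus strand: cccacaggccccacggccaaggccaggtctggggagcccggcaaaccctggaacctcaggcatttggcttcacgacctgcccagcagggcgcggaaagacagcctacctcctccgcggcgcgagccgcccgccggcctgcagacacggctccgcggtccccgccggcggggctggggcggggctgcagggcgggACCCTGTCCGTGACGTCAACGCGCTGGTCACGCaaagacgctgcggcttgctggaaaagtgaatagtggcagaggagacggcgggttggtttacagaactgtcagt

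Zfp386, chr12:116047474-116047773, plus strand: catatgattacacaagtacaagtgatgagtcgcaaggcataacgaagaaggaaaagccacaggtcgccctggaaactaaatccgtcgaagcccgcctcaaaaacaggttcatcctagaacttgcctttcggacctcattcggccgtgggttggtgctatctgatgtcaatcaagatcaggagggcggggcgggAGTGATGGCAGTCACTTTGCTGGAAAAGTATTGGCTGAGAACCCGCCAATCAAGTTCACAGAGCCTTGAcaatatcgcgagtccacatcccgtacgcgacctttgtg

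Gm40900, chr12:115703580-115703879, plus strand: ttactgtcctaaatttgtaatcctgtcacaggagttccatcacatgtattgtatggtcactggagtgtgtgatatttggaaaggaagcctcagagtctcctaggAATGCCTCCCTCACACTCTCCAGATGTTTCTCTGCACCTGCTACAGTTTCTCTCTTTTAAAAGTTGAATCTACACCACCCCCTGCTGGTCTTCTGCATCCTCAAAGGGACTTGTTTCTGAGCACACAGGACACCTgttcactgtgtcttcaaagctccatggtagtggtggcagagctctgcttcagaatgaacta

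The marked stretch is 24 bases in Rpia, 33 in Gm40827 and 69 in Zfp386, against 135 in Gm40900. The first 3 are 60.7%, 69.0% and 51.0% G or C, and Gm40900 is 46.0%. Searched on both strands, the ETS motif CCGGAAG occurs in Rpia and in none of the other promoters printed, and in 8.86% of 32851 RefSeq promoters of this length. CCAAT occurs at 2 places in Zfp386 and in 37.4% of all promoters. A p53 half-site occurs at 1 place each in Gm40900 and Zfp386 and in 8.36% of all promoters. The RUNX motif TGTGGT (16.8% of all promoters) and the E box CAGCTG (16.3%) occur in none of the 4. Gm30948 and Gm30996, also in Igh, have promoters closely similar to Gm40900, with 1 p53 half-site each and no summit in any library. Between such copies the aligner could have split or dropped reads, so the place of the Gm40900 summits is uncertain. Each motif was searched on its own, with overlaps between motifs left in, and a match describes letters, not a bound site.

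The tissue label was checked on gene ends. A summit lay within 1 kb of an end of 16 of 16 T lineage genes, among them Cd3e, Lck, Rag1 and Ptcra, in all 6 libraries. Of 12 B lineage genes, Cd79b, Ebf1, Blk and Cr2 had one in all 6 libraries, and the other 8, which include Cd79a, Pax5 and Ms4a1, had none in any. Of 6 γδ T and NK genes, which include Blk, 3 had a summit in all 6 libraries, Klrb1c and Ncr1 had none, and Il2rb lacked one in null 3. The lists held 54618, 60160 and 44496 summits in AD/- libraries 1, 2 and 3, against 54152, 55653 and 58019 in null libraries 1, 2 and 3, and values below follow this order. No read counts were used here, so depth is unknown, and AD/- 3 has the shortest list. A score percentile ranks a summit's score among all summits of the same library, and 100 is the best.

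Across the 6 loci the rates of accessible sites in AD/- and null thymus did not differ beyond the spread between libraries. The 6 loci held 251, 283 and 185 summits in AD/- libraries, against 233, 241 and 267 in null libraries. As a share of all summits this was 0.449% ± 0.0289 in AD/- and 0.441% ± 0.0165 in null libraries (SD, n = 3 each; exact two-sided permutation test, p = 0.9). The groups overlapped. With 3 against 3 libraries the smallest p this test can give is 0.1.

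Among the T cell receptor loci, Tcra/Tcrd held 94, 108 and 69 summits in AD/- libraries, against 91, 101 and 110 in null libraries. Per 10000 summits of the library that was 16.9 ± 1.25 in AD/- and 18.0 ± 1.09 in null libraries (exact permutation p = 0.4, n = 3 each). Tcrb held 44, 48 and 34 summits in AD/- libraries, against 39, 43 and 45 in null libraries. The rates were 7.89 ± 0.220 and 7.56 ± 0.311 per 10000 in AD/- and null libraries (exact permutation p = 0.3, n = 3 each). In both loci the groups overlapped. For Tcrg the numbers were 18, 18 and 10 in AD/- libraries, against 15, 16 and 21 in null libraries, or 2.85 ± 0.539 and 3.09 ± 0.463 per 10000 in AD/- and null libraries (exact permutation p = 0.6, n = 3 each).

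Igh was the locus of the 6 in which the rates of the 2 genotypes did not overlap. It held 80, 95 and 62 summits in AD/- libraries, against 75, 69 and 78 in null libraries. Per 10000 summits the AD/- libraries had 14.6, 15.8 and 13.9 and the null libraries 13.9, 12.4 and 13.4. The lowest AD/- library, at 13.94, lay just above the highest null library, at 13.85. The difference was 1.56 per 10000 (exact permutation p = 0.1, Benjamini-Hochberg adjusted p = 0.6 over 12 comparisons, n = 3 each), and it was 1.001 (exact permutation p = 0.3) when only summits with a score of at least 5 were counted and 0.899 (p = 0.1) with lists cut to the same length. Igk held 14, 14 and 10 summits in AD/- libraries, against 13, 12 and 12 in null libraries (exact permutation p = 0.3, n = 3 each). Igl held 1, 0 and 0, against 0, 0 and 1. None of the 12 comparisons between genotypes had a p or an adjusted p under 0.05. With 3 libraries each this was fixed in advance, since 0.1, the permutation p in Igh, is the smallest possible.

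**Figure D1:**
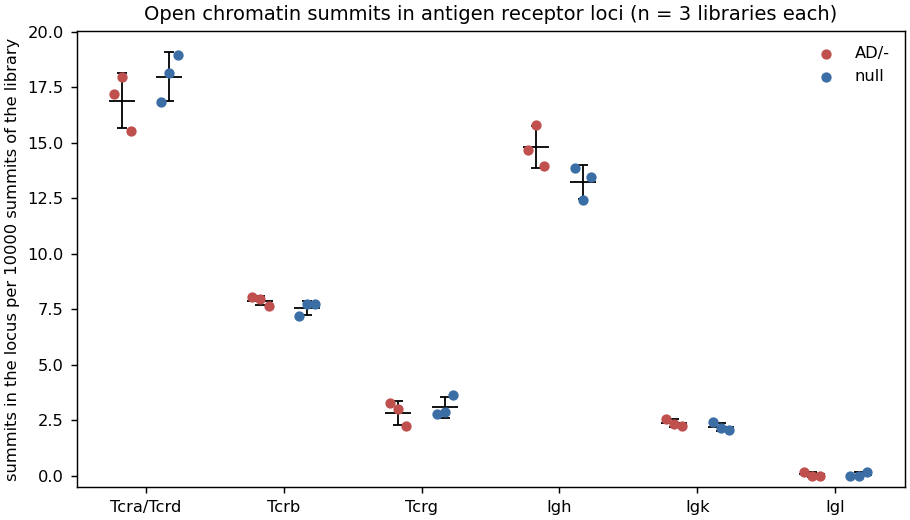
Summits in each antigen receptor locus (x axis) per 10000 summits of the library (y axis). Each point is 1 library, AD/- (red) left of null (blue), and black marks are the mean ± SD of 3 libraries. The groups overlap in every locus but Igh, where the AD/- libraries sit at 13.94 or above and the null libraries at 13.85 or below.

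No region in the 6 loci was specific to a genotype. Specific here means a summit in 3 of 3 libraries of a genotype and in 0 of 3 of the other genotype. There were 0 such regions of 355 for AD/-, where the background over all 73702 regions was 0.179%, and 0 of 355 for null, where the background was 0.418%. Were the regions independent draws, a count of 0 would allow a share of up to 0.845%. These counts thus do not set the loci apart from the genome. With the looser rule of at least 2 of 3 libraries against 0 of 3, 10 regions were found in AD/- (2.82%, background 1.51%) and 5 in null (1.41%, background 2.37%).

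The regions that passed the looser rule mostly had low scores, and they are named here after their values were seen. In Igh the 5 AD/- regions lay near Ighv9-3, Ighv6-7, Ighv8-2, Ighv1-64 and Ighv1-68, and in each the summits came from AD/- 1 and AD/- 2. Their percentiles ran between 0.187 near Ighv8-2 and 39.1 near Ighv1-64. In Tcra/Tcrd the 3 AD/- regions were at Trav8n-2, Trav13n-4 and Trav13-5, and in Tcrb the 2 were near Trbv11 and Trbv29. A region is not the whole surroundings of a segment: Trav8n-2 and Trav13n-4 had a summit within 500 bp in all 6 libraries, and Trbv29 in all but AD/- 3. The 5 null regions were at Trav6-4, Trav15-3 and Trdv2-2, near Trbv21, and inside Zfp386.

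Another 13 regions had a summit in 3 libraries of one genotype and 1 of the other, 6 leaning to AD/- and 7 to null. For this pattern the share over all regions is not given, so the counts do not set the loci apart from the genome. Of the AD/- group, Trdv2-2, a V segment used in T cell receptor delta chains, had percentiles of 59.4, 69.2 and 57.7 in AD/- libraries and 69.9 in null 3, with none in null 1 and 2. Null 1 and 2 had their summits, at percentiles 64.2 and 67.3, in the neighbouring region 663 bp away, on the other side of the segment. So every library had a summit at Trdv2-2, and the position of it differed. The other AD/- leaning regions with the highest ranks were at Trav6n-6 (34.1, 36.2 and 8.85 in AD/-, 29.0 in null 3), Trbj2-6 (19.3, 29.9 and 6.32 in AD/-, 10.9 in null 2), Ighv1-5 and a site 14.8 kb from Ighv8-12, the last pair at percentiles of 12.0 or lower.

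Of the null leaning regions, Trav4-4-dv10, a V segment shared by alpha and delta chains, had a percentile of 57.0 in AD/- 2 and none in AD/- 1 and 3, against 44.8, 51.0 and 49.2 in null libraries. Trgv2, a V segment of the gamma chain, had 20.5 in AD/- 1, against 33.4, 24.8 and 33.2 in null libraries. Trdd1, a D segment of the delta chain, had 29.2 in AD/- 1, against 20.2, 34.8 and 21.5 in null libraries. A region 4218 bp from Trgc2 and one 137 bp from the V segment Trav10 had the same pattern, with a summit in AD/- 1 and none in AD/- 2 and 3. At Trav10, AD/- 2 had a summit, at percentile 13.5, in the neighbouring region 301 bp from the other side of the segment. The AD/- library with the shortest list, AD/- 3, lacked a summit in all 5 of these regions.

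A similar shift of position was seen at Trav13-5. AD/- 1 and AD/- 2 had a summit inside the segment, at percentiles 62.5 and 65.5, while AD/- 3, null 1 and null 2 had theirs in the region 546 bp away, at 61.4, 69.99 and 63.98. In null 3 it was at position 53794721, still further off, at 65.5. Trav13-5 and Trdv2-2 were 2 cases in which neighbouring regions, each with a summit in 2 or more libraries, were never used by the same library.

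Of the 355 regions, 142 (40.0%) had a summit in all 6 libraries, against 52.1% of the 73347 regions elsewhere, and 67 (18.9%) had one in a single library, against 16.4% elsewhere. Within each library, the share of summits that fell in regions found in all 6 averaged 59.6% ± 9.46 in the loci and 71.3% ± 7.94 elsewhere, and it was lower in the loci in 6 of 6 libraries (exact paired permutation test over sign flips, p = 0.03125, adjusted p = 0.0344 over 11 comparisons). The regions found in all 6 are the same for every library, so these 6 differences largely repeat the contrast of regions above. Their p is therefore not separate support for it. Scores were lower as well. The median percentile of the loci's summits was 40.6 ± 1.92, against 50.0 ± 0.0268 for all other summits, again lower in 6 of 6 libraries (exact paired permutation p = 0.03125, adjusted p = 0.0344).

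That median was 39.1, 40.7 and 37.8 in AD/- libraries, against 40.8, 42.9 and 42.3 in null libraries. The groups did not overlap, but AD/- 2 and null 1 nearly touched. The difference was -2.81 percentile points (exact permutation p = 0.1, adjusted p = 0.6, n = 3 each). Of the 46 regions found in 5 libraries, 30 were missing from AD/- 3. In the 142 regions found in all libraries the summit positions spread over a median of 48.5 bp.

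The T cell receptor loci carried more summits per length than the immunoglobulin loci in every library. The 3 TCR loci together had 54.0 ± 8.13 summits per Mb (range 39.6 to 61.8), and the 3 Ig loci had 13.9 ± 1.95 (range 11.2 to 16.9), a difference of 40.2 per Mb in favour of TCR in 6 of 6 libraries (exact paired permutation p = 0.03125, adjusted p = 0.0344). Set against flanks of the same length on both sides, Tcrb had 56.2 ± 6.61 summits per Mb and its flanks 16.4 ± 2.79. Tcrg had 65.3 ± 14.9 and its flanks 7.33 ± 1.63. Both were denser than their flanks in 6 of 6 libraries (exact paired permutation p = 0.03125, adjusted p = 0.0344).

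Tcra/Tcrd lay close to its surroundings, with 51.6 ± 8.10 summits per Mb, against 44.9 ± 4.03 in the flanks. It was denser in 5 of 6 libraries (exact paired permutation p = 0.0625), and the difference was 21.0 per Mb with flanks of double the length (exact paired permutation p = 0.03125) and 0.721 per Mb with lists of equal length (exact paired permutation p = 0.1875). All 3 Ig loci were sparser than their flanks in 6 of 6 libraries (exact paired permutation p = 0.03125, adjusted p = 0.0344). Igh had 26.8 ± 3.92 summits per Mb, against 40.8 ± 3.51 in its flanks. Igk had 3.79 ± 0.460, against 35.5 ± 2.49, and Igl had 1.11 ± 1.72, against 12.8 ± 1.72. The size depended on the flanks: with flanks of double the length the difference was -14.8 per Mb in Igk, against -31.7, and -31.5 in Igl, against -11.7, with p unchanged at 0.03125 (exact paired permutation).

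In the Tcra/Tcrd locus the strongest site lay between Trac, the alpha constant gene, and Dad1, a gene of the oligosaccharyl transferase. The alpha enhancer is known to lie in this interval. The region chr14:54227253-54227863, 3367 bp beyond Trac, had percentiles of 99.0, 98.3 and 98.8 in AD/- libraries, against 99.1, 98.1 and 98.7 in null libraries. The genotypes overlapped here, as they did in the second region of the interval at chr14:54233170-54233743, with 86.6, 88.7 and 83.5 in AD/- and 86.4, 88.0 and 87.0 in null libraries. A region inside Dad1 ranked almost as high, at 83.5 to 87.8 over the libraries.

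At the far end of the locus, Trav1, the V segment most distant from Trac, had a region 137 bp away with percentiles of 92.3, 94.5 and 90.3 in AD/- libraries, against 94.1, 92.8 and 92.4 in null libraries. Trav13-1, in the middle of the V array, had one 93 bp away at 80.6, 83.5 and 77.3 in AD/- libraries, against 80.4, 78.5 and 82.6 in null libraries. In both the genotypes overlapped.

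Around the delta genes, which lie inside the alpha locus, scores were in the middle of the list. Between Trdj2 and Trdc, where the delta enhancer is known to lie, 2 regions were found in all 6 libraries. The best summit of the interval had percentiles of 54.1, 55.0 and 44.5 in AD/- libraries, against 55.2, 51.2 and 55.7 in null libraries. Between Trdc and Trdv5, a V segment in the opposite orientation, 1 of 2 regions was found in all 6 libraries. The best summit there had 64.9, 69.6 and 56.4 in AD/- libraries, against 69.7, 70.7 and 67.1 in null libraries. Between Trdv5 and Traj61 lies the promoter called TEA, known to drive germline transcripts of the first J alpha segments. The single region there, found in all 6 libraries, had 53.4, 60.8 and 53.9 in AD/- libraries, against 64.5, 63.3 and 57.4 in null libraries, which overlapped.

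The J alpha array, 65.5 kb from Traj61 to Trac, held 25 regions, 6 of them in all 6 libraries. Its best summit had a percentile of 39.8, 47.1 and 36.0 in AD/- libraries, against 50.3, 54.4 and 47.7 in null libraries. These did not overlap, and the gap between AD/- 2 and null 3 was small. The best was taken over 16, 21 and 9 summits in AD/- libraries, against 11, 23 and 18 in null libraries. The difference was not tested, and the share of intervals that separate the genotypes is not given. Of 60 Traj segments, 17, 20 and 8 had a summit within 500 bp in AD/- libraries, against 10, 23 and 18 in null libraries. With the array split into 3 equal stretches, the median percentile was 14.2 to 27.7 over the libraries in the stretch nearest Traj61, 11.0 to 21.1 in the middle and 1.57 to 13.6 next to Trac. The stretch next to Trac was the lowest in 6 of 6 libraries, and Trac itself had a summit at percentiles 0.844 and 18.7 in AD/- 1 and 2, none in AD/- 3, against 5.23, 5.82 and 11.3 in null libraries.

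**Figure D2:**
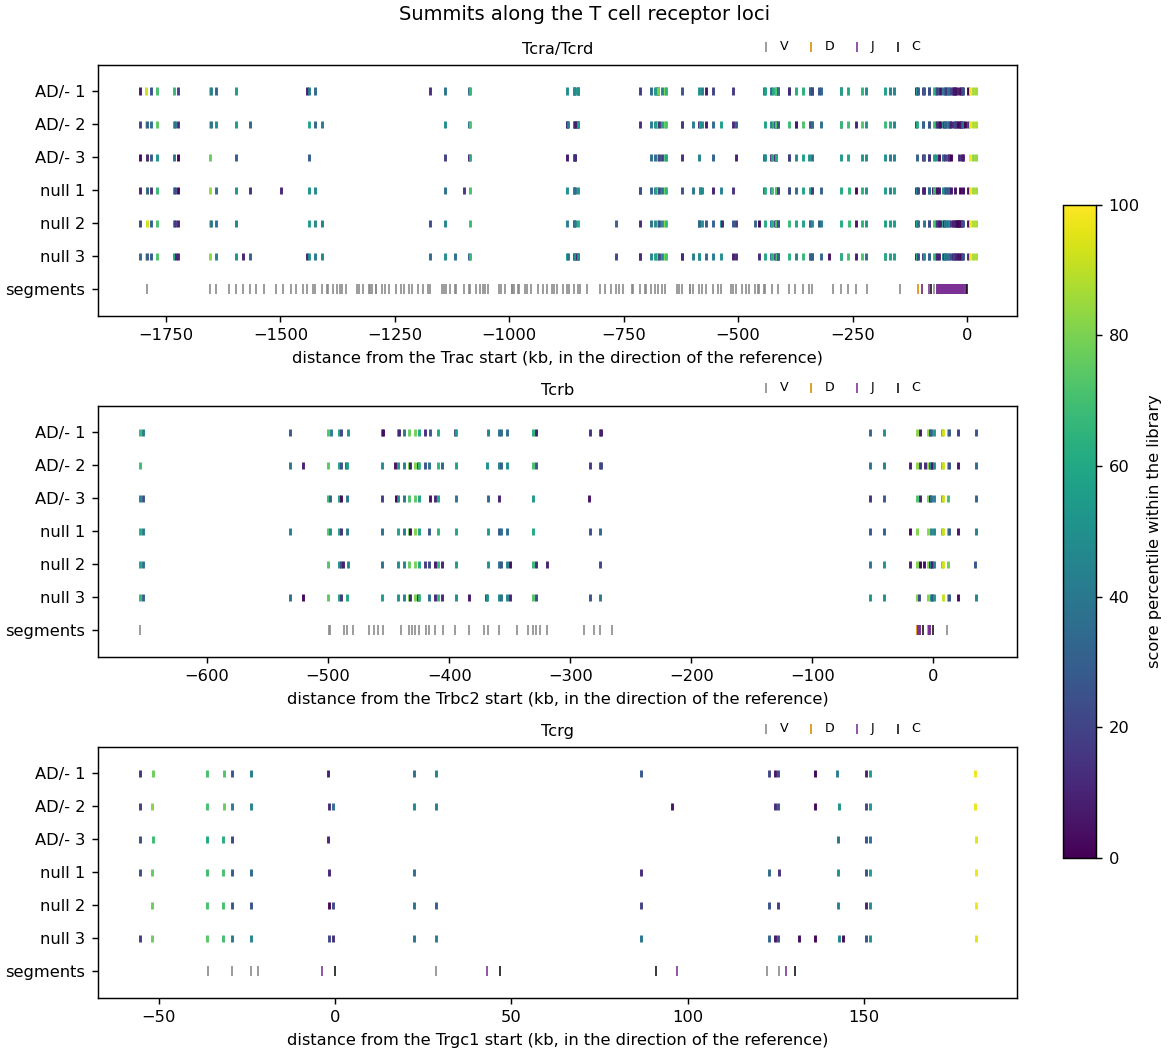
Summits along Tcra/Tcrd, Tcrb and Tcrg. Each tick in the rows of the libraries (AD/- above null) is the best summit of a region, coloured by its score percentile within the library, the bottom row shows the annotated V, D, J and C segments, and the x axis is the distance in kb from a constant gene. The brightest tick of the upper panel lies just beyond Trac in all 6 libraries, and a stretch of the V alpha array is empty in all of them.

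In Tcrb the strongest site lay between Trbc2, the second beta constant gene, and Trbv31, an interval known to hold the beta enhancer. The region chr6:41554306-41554859 had percentiles of 92.9, 92.8 and 92.3 in AD/- libraries, against 92.5, 93.7 and 91.3 in null libraries. Both D segments of the locus had a summit in all 6 libraries. Trbd1, which is preceded by a known germline promoter, had 82.4, 83.0 and 72.0 in AD/- libraries, against 81.1, 80.6 and 80.6 in null libraries. Trbd2 had 83.4, 83.7 and 79.7 in AD/- libraries, against 83.2, 82.1 and 82.3 in null libraries. At all 3 sites the genotypes overlapped, and AD/- 3 was lowest at both D segments.

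Of the 2 beta constant genes, Trbc2 had a summit in all 6 libraries, at percentiles of 54.0, 48.1 and 43.9 in AD/- libraries, against 44.9, 43.2 and 51.8 in null libraries. Trbc1 had one in AD/- 2 and null 2, at 11.2 and 3.40. Of the 14 J beta segments, 57.1%, 57.1% and 64.3% had a summit within 500 bp in AD/- libraries, against 0%, 57.1% and 21.4% in null libraries. The groups met at 57.1%. Neighbouring J beta segments share summits, which lay in 2 regions, at Trbj1-6 and Trbj2-6, with percentiles of at most 29.9.

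The V beta segments with the highest ranks were Trbv12-2, at 78.6, 80.5 and 75.2 in AD/- libraries, against 80.7, 79.3 and 80.3 in null libraries, and Trbv12-1, whose region had 71.5 to 79.3 over the libraries. These are near-identical copies, between which the aligner could have split or dropped reads, so the values of each are uncertain. A summit was found within 500 bp in all 6 libraries for 11 of the 22 V beta segments that are not pseudogenes and for 0 of 13 pseudogenes. Those 11 were Trbv1, Trbv5, Trbv12-1, Trbv12-2, Trbv13-2, Trbv13-3, Trbv16, Trbv19, Trbv20, Trbv23 and Trbv31. A stretch of 0.222 Mb towards Trbd1, which holds the V segment Trbv30 and is known for its trypsinogen genes, had no summit in any library, and 1531 stretches of the genome without a summit are at least as long.

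Tcrg is short and mixed in content. Its strongest site, at percentiles of 97.7, 96.9 and 95.4 in AD/- libraries, against 97.3, 97.9 and 96.0 in null libraries, was at the end of Stard3nl, a gene for a membrane protein of endosomes, where the Gm40827 promoter printed above also lies. Among receptor segments Trgv7 had a region at 70.4, 70.9 and 59.4 in AD/- libraries, against 68.8, 71.0 and 74.2 in null libraries. A region 2534 bp from Trgv4 had 72.3, 76.9 and 62.3 in AD/- libraries, against 70.4, 70.7 and 69.9 in null libraries. Trgv7 and Trgv4 were the V gamma segments with a summit within 500 bp in all 6 libraries. Trgv1 and Trgv6 had one in all but AD/- 3, Trgv2 and Trgv3 in 4 libraries, and Trgv5, the V segment of epidermal γδ T cells, in none.

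The T cell receptor V alpha array was covered unevenly. Of 40 Trav segments whose names carry a d, which marks a copy from a duplication of the array, 0 had a summit within 500 bp in all 6 libraries. Of 34 n copies 3 did, Trav11n, Trav8n-2 and Trav13n-4, and of the 56 without either letter 14 did. A stretch of 0.236 Mb with 27 V segments, chr14:52810852-53047314, had no summit in any library, and 1455 stretches of the genome without a summit are at least as long. Because the copies are nearly identical, reads from them may be shared or dropped, and the part of this in the counts was not tested.

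Igh, which is not fully rearranged in T cells, had accessible sites at its known control regions in all 6 libraries. The interval between Ighm and Ighj4, known for the enhancer Eμ, held 4 regions, all found in 6 of 6 libraries, and its best summit had percentiles of 65.3, 68.1 and 56.5 in AD/- libraries, against 63.5, 69.3 and 65.7 in null libraries. At Ighd, the delta constant gene, a region had 63.0, 72.8 and 57.1 in AD/- libraries, against 60.4, 65.0 and 64.4 in null libraries. Between the D segments and the V array, where the insulator IGCR1 is known to lie, 2 regions were in all 6 libraries. The best summit of this interval had 61.6, 61.9 and 65.7 in AD/- libraries, against 64.6, 65.9 and 61.7 in null libraries. In all of these the genotypes overlapped.

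Beyond Igha, the constant gene furthest from the V array, lies a stretch known for the Igh 3′ enhancers and the CTCF sites that end the locus. The region chr12:113222003-113222680 there had 79.1, 79.5 and 76.4 in AD/- libraries, against 81.6, 81.7 and 80.9 in null libraries. The groups did not overlap, with AD/- lower, and the difference was not tested. This region was seen among many, and the share of regions that separate the genotypes in this way is not given. Its neighbour at chr12:113217778-113218317 had 57.3, 54.1 and 47.3 in AD/- libraries, against 58.4, 64.4 and 53.4 in null libraries, which overlapped. The 105 kb from Igha to Ighg3, with the switched constant genes, held 0 summits in 6 libraries.

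Among D and J segments of Igh, summits were rare. Of 20 D segments, Ighd4-1 and Ighd3-2 had a summit within 500 bp, both in AD/- 1 at percentiles 1.02 and 19.8, and of 4 J segments none had one. Outside the receptor genes, the Zfp386 end, a zinc finger gene printed above, had 92.2, 92.8 and 87.9 in AD/- libraries, against 91.9, 93.2 and 93.6 in null libraries.

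Within the V array of Igh the best sites ranked below the region at Trav1 and near the one at Trav13-1. Most of them lay more than 500 bp from a V segment. A region 973 bp from Ighv1-86, the V segment furthest from the constant genes, had 85.01, 84.4 and 79.8 in AD/- libraries, against 84.4, 85.05 and 84.7 in null libraries. Regions near Ighv1-11 (76.9 to 84.9 over the 6 libraries), Ighv1-67 (75.8 to 82.7), Ighv8-12 (75.3 to 84.95) and Ighv1-46 (69.3 to 78.9) lay 899 bp or more from the segment named. At Ighv1-10 the summit lay inside the segment, at 80.4, 82.3 and 73.9 in AD/- libraries, against 78.4, 81.3 and 82.9 in null libraries.

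The V segments of Igh with summits are described here by family and place, with no test. Of 92 segments of the Ighv1 family, the largest and most distal family, 18 had a summit within 500 bp in all 6 libraries, and of 91 others Ighv9-4 and Ighv15-2 did. By coordinate, 1 of 67 segments in the stretch nearest the D segments, 11 of 71 in the middle and 8 of 45 in the most distal one had a summit in all 6 libraries. A stretch of 0.416 Mb with 36 V segments, next to the D side, had no summit in any library, and 912 stretches of the genome without a summit are at least as long. Igh was also richest in sites of a single library, with 5, 12 and 5 in AD/- libraries, against 1, 4 and 5 in null libraries, at a median percentile of 7.80. These were 27.1% of its regions, against 16.4% of the regions outside the 6 loci. AD/- 2 has the longest list, and no background per library is given, so these counts do not compare the genotypes.

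**Figure D3:**
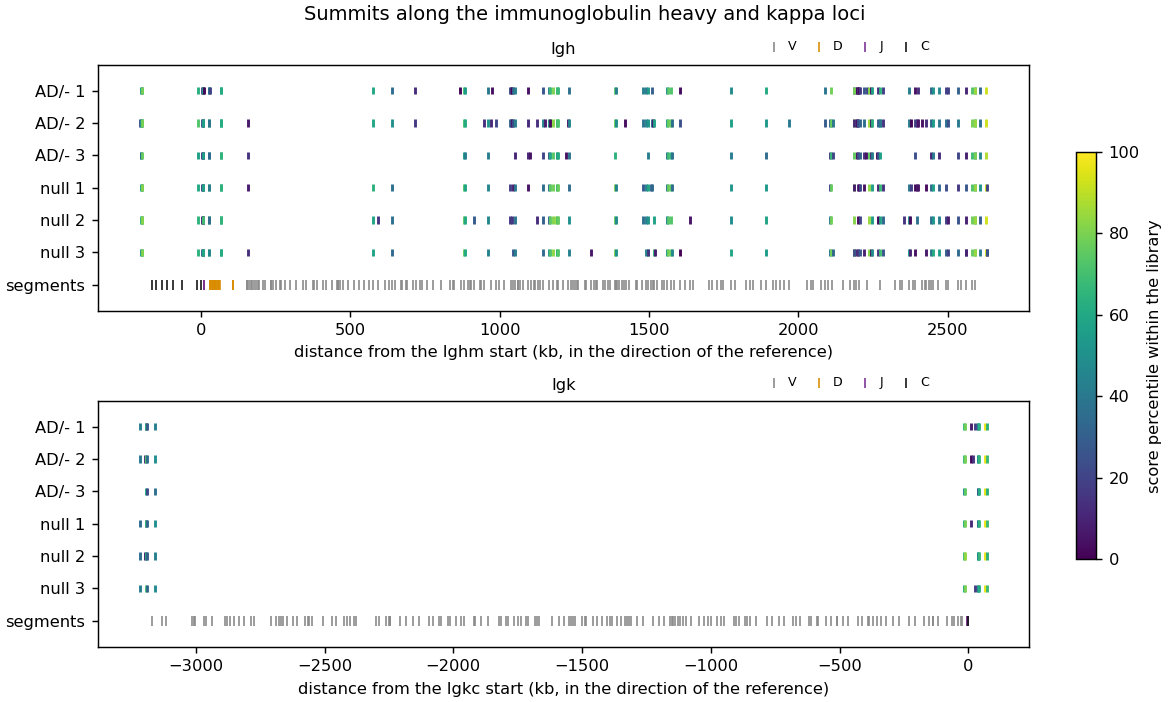
Summits along Igh and Igk, drawn as for the T cell receptor loci: 1 row per library (AD/- above null), colour for the score percentile within the library, segments in the bottom row, and distance in kb from Ighm or Igkc on the x axis. The V kappa array is empty in all 6 libraries. The Igh V array has summits in many parts, with an empty stretch of 0.416 Mb next to the D side.

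Igk had almost no summits over its V array. From position 67566483 to 70709499 on chromosome 6, 3.14 Mb or 95.2% of the locus, no library had a summit. The stretch holds 161 of the 162 V kappa segments, 101 of which are not pseudogenes, and 63 stretches of the genome without a summit, this included, are at least as long. None of the 162 segments had a summit within 500 bp in any library. They are all the V kappa segments of the locus, side by side, so no margin for sampling is given. Summits were found at the 2 ends.

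Between Igkv3-1 and Igkj1, an interval known for the elements Cer and Sis that bind CTCF, 2 regions were present in all 6 libraries. The region chr6:70714208-70714709 had percentiles of 78.4, 79.6 and 75.4 in AD/- libraries, against 79.5, 83.7 and 80.3 in null libraries, and its summits fell on the same or adjacent bases, 70714458 and 70714459. The other, chr6:70709249-70709803, had 67.3, 67.1 and 48.5 in AD/- libraries, against 61.5, 68.8 and 61.9 in null libraries. The genotypes overlapped in both.

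From Igkj1 to Igkc, where the intronic kappa enhancer is known to lie, there were 0 summits in 6 libraries. About 8934 bp beyond Igkc, near the known place of the 3′ kappa enhancer, a region had low percentiles of 7.33 and 1.21 in AD/- 1 and 2, none in AD/- 3, against 12.4 in null 1 and none in null 2 and 3. The highest-ranking site of Igk was at Rpia, ribose-5-phosphate isomerase of the pentose phosphate pathway, whose promoter is printed above. The region at its end had 96.5, 96.7 and 95.6 in AD/- libraries, against 97.1, 97.0 and 96.4 in null libraries. In Igl the single region, 58.7 kb from Iglc1, had percentiles of 5.61 in AD/- 1 and 1.20 in null 3.

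**Figure D4:**
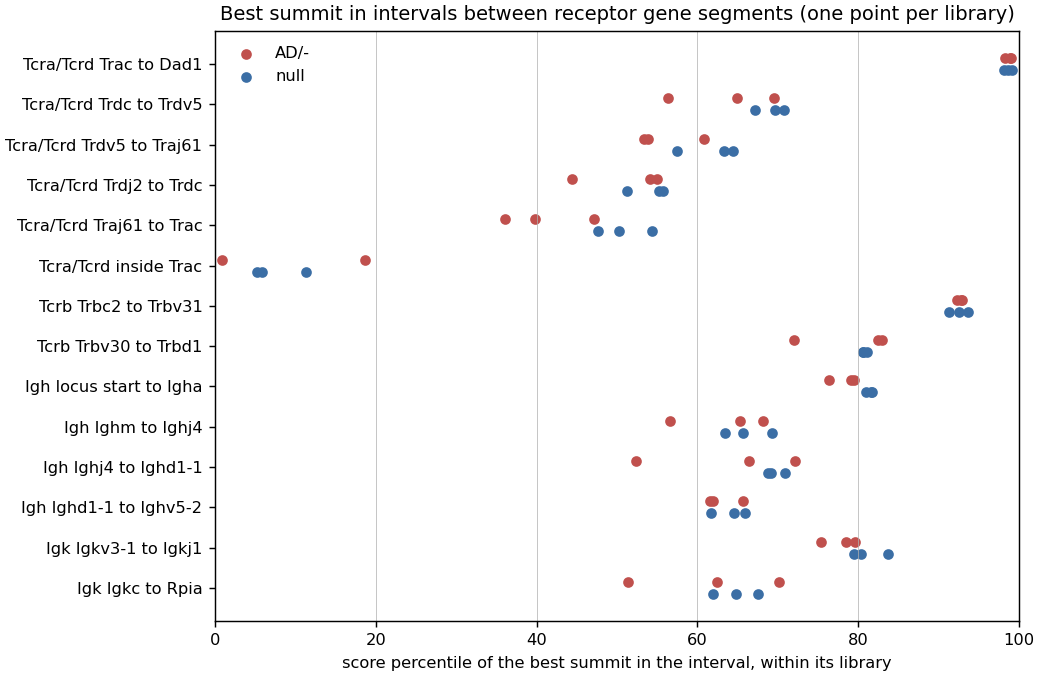
Score percentile within its library (x axis) of the best summit in intervals between receptor gene segments (y axis). Each point is 1 library, AD/- (red) above null (blue), and an interval with no summit in a library lacks its point. The interval from Trac to Dad1 stands at 98.1 to 99.1 in all 6 libraries, and the summits inside Trac are at 18.7 or lower.

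Over the 4 loci with V segments near summits, the share of V segments with a summit within 500 bp did not separate the genotypes. In Tcra/Tcrd it was 25.0%, 28.7% and 18.4% in AD/- libraries, against 25.7%, 28.7% and 31.6% in null libraries (exact permutation p = 0.3, n = 3 each). In Igh it was 20.2%, 23.5% and 12.6% in AD/- libraries, against 18.0%, 18.0% and 19.1% in null libraries (exact permutation p = 1, n = 3 each). AD/- 3 was the lowest library in both. In Tcrb the means were 42.9% ± 2.86 in AD/- and 46.7% ± 3.30 in null libraries (exact permutation p = 0.3, n = 3 each), and in Tcrg 61.9% ± 29.7 and 80.95% ± 8.25 (exact permutation p = 0.7, n = 3 each).

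Between the receptor types the share did differ within each library, in a comparison added after the data were seen. It averaged 31.7% ± 4.83 over the TCR V segments and 9.77% ± 1.88 over the Ig V segments, higher for TCR in 6 of 6 libraries (exact paired permutation p = 0.03125, adjusted p = 0.0344). The Ig value pools the Igh segments, at 12.6% to 23.5% over the libraries, with 162 Igk segments at 0%, and Igh alone was not tested against the TCR loci. The side on which the summits lay differed as well. The upstream side, away from the constant genes and where the V promoter lies in segments that run with the array (Trdv5 and Trbv31 run against it and were left out), held 65.0%, 68.9% and 71.4% of the V segment summits of Tcra/Tcrd in AD/- libraries, against 65.0%, 69.0% and 70.8% in null libraries.

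In Igh the upstream side held 5.41%, 6.82% and 13.0% of the V segment summits in AD/- libraries, against 6.06%, 3.03% and 11.1% in null libraries. The mean over 6 libraries was 68.4% ± 2.79 for Tcra/Tcrd and 7.58% ± 3.76 for Igh, higher for Tcra/Tcrd in 6 of 6 libraries (exact paired permutation p = 0.03125, adjusted p = 0.0344). This test was added after the data were seen, and the Igh share rests on 1 to 4 upstream summits per library. Igh summits lay inside the segment in 31.8% to 47.8% of cases and on the downstream side, where the recombination signal is, in 39.1% to 61.4%. Upstream summits of Tcra/Tcrd were a median of 145 to 176 bp from the segment. In Tcrb the upstream share was 47.1%, 70.6% and 61.5% in AD/- libraries, against 62.5%, 70.6% and 61.1% in null libraries.

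**Figure D5:**
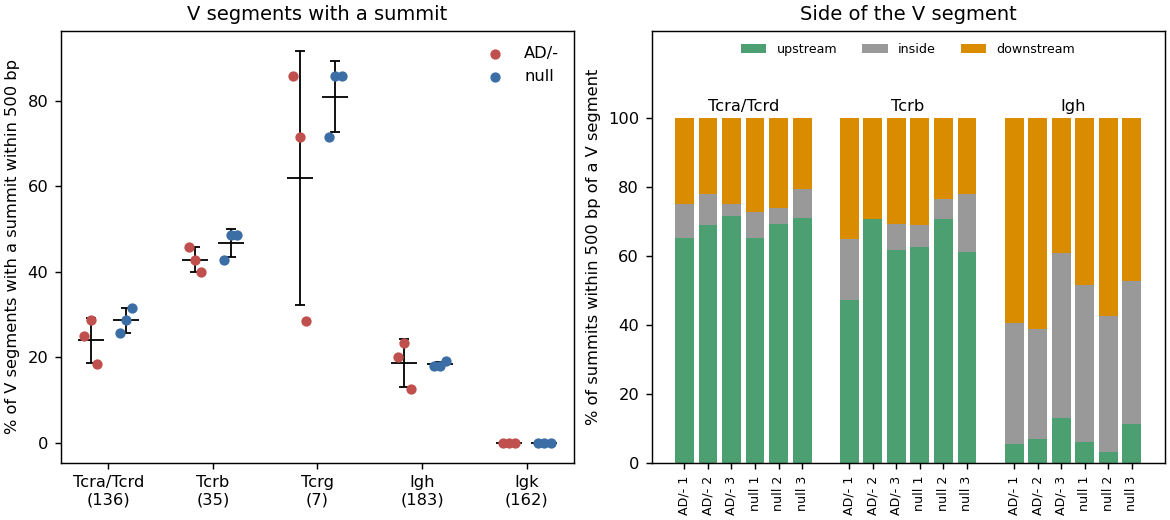
Left, the percentage of V segments with a summit within 500 bp in each locus (number of segments in parentheses), 1 point per library, AD/- (red) left of null (blue), black marks for the mean ± SD of 3 libraries. Right, the percentage of those summits upstream of, inside and downstream of the segment in each library, with 65.0% to 71.4% upstream in Tcra/Tcrd and 3.03% to 13.0% in Igh.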

How the data were processed

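ATAC-seq peak summits of 6 mouse thymus libraries were used, 3 AD/- and 3 null, numbered in the order of deposition. The authors deposited 1 summit list per library, so peaks were called per sample, with a position and a score read as the −log10 of the q-value, since the deposited scores begin near 1.3. The submitters' processing notes name MACS2 2.1.2, Picard 2.9.0, Bowtie2 2.3.4.2, Trim Galore 0.4.5 and the build GRCm38, without settings. The treatment of reads that match several segment copies, and any shift of reads for the enzyme's cut, are not given in the sources used here. Read counts were not used here, so depth is unknown and no interval for depth is given.

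Regions, ranks and segment distances (500 bp) were computed with Python 3.11.15, pandas 2.3.3 and NumPy 2.4.6, with segments from a RefSeq table on GRCm38.p6 that gives no strand. Genotypes were compared by exact two-sided permutation over the 20 relabellings, and values within a library by 64 sign flips (smallest p 0.03125). P-values were adjusted by the Benjamini-Hochberg method in 2 families of 12 and 11 tests. The region rule was run on simulated sites that lay far apart and were missed by no library except by design. That run cannot show how the rule treats missed or widely shifted summits. Regions named are those specific to a genotype, the 5 best of each locus found in all 6 libraries (up to 8 in an Ig locus), and up to 5 per genotype found in 3 libraries of it and at most 1 of the other. Segments and intervals around known enhancers were added to these. The members, lists and tests were chosen with earlier results of these data known, and the tests on V segments were added after seeing the data. Alternatives were other extensions, lists of equal length, a score of at least 5, summits closer than 501 bp counted once, a segment distance of 1 kb, longer flanks, a looser rule, another denominator and leaving out each library. Some of the regions and genes these rules select are left out of the text.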

Additional observations from a re-analysis of the deposited data

How the results depend on the processing

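No paired analysis was possible because the labels give no replicate numbers. Tests between genotypes cannot give p under 0.1, so none could cross the threshold of 0.05, and only a reversal could show in them. Over 96 results under alternatives other than leaving out a library, 89 kept their side of the threshold and were not reversed. In 4 of these the AD/- minus null difference became 0: Igk and Igl rates and the share of Igh V segments with lists of equal length, and the Igl rate at a score of at least 5. With a 100 bp extension 1 region was specific to null, with lists of equal length 2 were specific to AD/-, and the rule of 2 of 3 gave 10 for AD/- and 5 for null. With flanks of double the length Tcra/Tcrd exceeded its flanks by 21.0 summits per Mb (exact paired permutation p = 0.03125). The AD/- minus null difference in the share of V segments with a summit was -0.364 points in Igh at a score of at least 5, against 0.364 with all summits, and 1.90 in Tcrb with lists of equal length, against -3.81. The causes were not tested.

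Leaving out each library in turn gave these ranges of AD/- minus null differences: -0.00353 to 0.0238 points for the share of summits in the loci. Per 10000 summits they were -1.66 to -0.391 in Tcra/Tcrd, 0.151 to 0.455 in Tcrb, -0.469 to 0.0555 in Tcrg, 1.06 to 1.99 in Igh, 0.0787 to 0.267 in Igk and -0.0575 to 0.0610 in Igl. The median percentile differed by -3.55 to -2.11. The share of V segments differed by -6.99 to -1.84 in Tcra/Tcrd, -5.71 to -2.38 in Tcrb, -31.0 to -2.38 in Tcrg and -2.004 to 3.46 in Igh. Regions specific to a genotype numbered 0 to 7 for AD/-, 7 without AD/- 3, and 0 to 4 for null. With 5 libraries the exact paired permutation test cannot go below p = 0.0625, so no within-library result could pass. The within-library differences stayed at 38.7 to 42.5 per Mb for TCR over Ig, -9.94 to -8.90 for the percentile, -11.8 to -10.2 points for regions in all libraries, 20.96 to 23.1 points for V segments and 59.7 to 61.3 points for the upstream side. Against the flanks they were 5.62 to 8.11 per Mb in Tcra/Tcrd, 38.7 to 41.1 in Tcrb, 54.4 to 62.4 in Tcrg, -14.5 to -13.4 in Igh, -32.2 to -31.1 in Igk and -12.0 to -11.3 in Igl.

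The lists have unequal lengths (44496 to 60160 summits) and no read counts, so a site without a summit is not shown to be closed, and differences between genotypes at single regions were not tested.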
